A study of Arabidopsis thaliana with 14 samples.

Results

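The thalianol gene cluster of Arabidopsis thaliana was followed in seedlings with altered activity of YODA (YDA), a MAP kinase kinase kinase whose activity limits how many epidermal cells become stomatal precursors. The cluster was taken as 5 loci, AT5G47950, AT5G47980, AT5G47990 (CYP705A5), AT5G48000 (CYP708A2) and AT5G48010 (THAS1). The probe table used gave 2 of them a separate probe set, AT5G47950 (248723_at) and AT5G47980 (248725_at), among 13286 loci with at least 1 on the array. No probe set was named there for CYP705A5, CYP708A2 or THAS1, which are not analysed here. The loci were chosen by their place in the cluster, with results of these data already known, among them the difference of AT5G47980 between the control ecotypes. The values of the control ecotypes are therefore given as a description, without a test.

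Each of 14 arrays held 22810 probe set intensities from total RNA of seedlings at 7 dpg, the age written in the labels. There were 4 arrays of yda seedlings and 4 of seedlings with a YDA lacking its N-terminal part, labelled NB89 and here called NdelYDA. The controls were 3 arrays of line CS9159 in the C24 ecotype and 3 of the Ler ecotype. The labels place NdelYDA replicates 1 and 4 in Ler and describe them as without stomata, and they give neither an ecotype nor an allele for yda. C24 was taken as the control of yda because the design leaves it without another mutant. The promoter behind NdelYDA is not given in the sources used here. Biological replicates are named in the labels of the mutants only, and for the controls the spread behind a p-value may be technical in part.

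Thalianol is a triterpene built from the same precursor as the sterols. THAS1 folds oxidosqualene into thalianol, CYP708A2 hydroxylates it, CYP705A5 desaturates the product, and acyltransferases of the BAHD family, to which AT5G47980 and AT5G47950 belong, can attach acyl groups. The genes stand side by side and are known for joint expression, mainly in roots, and the products are specialised metabolites rather than membrane sterols. In the gene table, 2 genes (RABA4C and AT5G47970) lie between AT5G47950 and AT5G47980, and AT5G47980 is followed directly by CYP705A5, CYP708A2 and THAS1.

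AT5G47980 gave a strong signal in the Ler control, less in NdelYDA, and hardly any in C24 and yda. The Ler arrays read 2072.5, 2184.2 and 2182.8 intensity units. The NdelYDA arrays read 529.9, 521.9, 492.6 and 557.5. Every NdelYDA array thus lay below every Ler array, and the spread within each group was narrow. The C24 arrays read 19, 8.7 and 9, and the yda arrays 9.3, 3.9, 7 and 26.9. All 7 of these values lay below the 30th percentile of their array, which ranged from 75.1 to 85.8 over the arrays, and the C24 and yda groups overlapped.

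**Figure D1:**
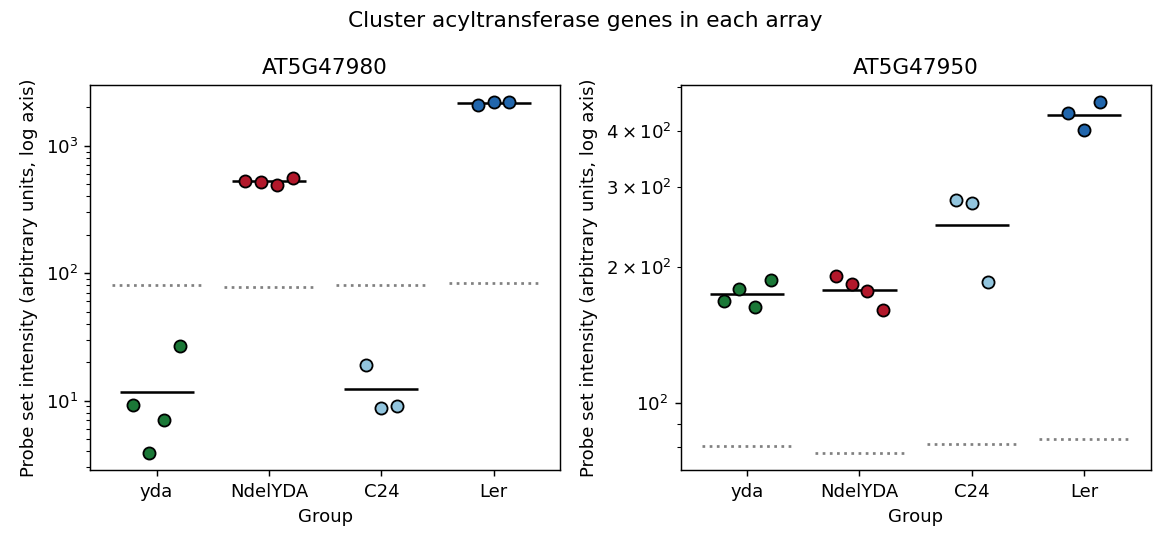
Probe set intensity (log axis, arbitrary units) of AT5G47980 and AT5G47950 in each array, with the group mean as a solid line and the mean 30th percentile of the group's arrays as a dotted line. For AT5G47980 the NdelYDA points (492.6 to 557.5) lie between Ler (2072.5 to 2184.2) and the dim C24 and yda points (3.9 to 26.9), while AT5G47950 is highest in Ler (401.2 to 461.6) and measurable in all 4 groups.

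AT5G47950, the other measured acyltransferase gene, was above the 30th percentile on every array and varied less. It read 436.7, 401.2 and 461.6 in Ler, and 190.8, 183.4, 176.5 and 160.5 in NdelYDA. The groups did not overlap. In C24 it read 280.7, 277 and 185, and in yda 167.7, 178.7, 163 and 186.8. The third C24 array lay within the range of yda, so these groups overlapped. From the highest to the lowest group mean the order was Ler (433 ± 30.4, SD, n = 3), C24 (248 ± 54.2, n = 3), NdelYDA (178 ± 12.9, n = 4) and yda (174 ± 10.7, n = 4), and the last 2 groups overlapped throughout. For AT5G47980 the order was Ler (2150 ± 64.1, n = 3), NdelYDA (525 ± 26.7, n = 4), then C24 (12.2 ± 5.86, n = 3) and yda (11.8 ± 10.3, n = 4), which could not be ordered.

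The first comparison, NdelYDA against Ler, asked which transcripts follow a gain of YDA activity. It takes Ler as the background of all NdelYDA arrays, although the labels name Ler for some of the replicates only. A gain of YDA activity and a difference in background could not be told apart here, and the part of background was not tested. Both measured cluster genes fell in NdelYDA. The log2 change of AT5G47980, on the scale of log2(intensity + 16), was -2.0 (SE 0.2, limma adjusted p = 1.07e-06), and its mean intensity was 24.5% of that in Ler. It ranked 78 from the lowest among the 17210 probe sets tested. For AT5G47950 the log2 change was -1.21 (SE 0.12, limma adjusted p = 1.39e-06), or 41% of the Ler mean. The same Ler arrays enter the ecotype difference that drew attention to the cluster. The p-values of the cluster genes that use Ler, and this rank, are therefore not independent of that choice. The count of 2 lower members of 2 stands beside 16.6% of all probe sets tested that were called lower, and 22.9% whose groups did not overlap with NdelYDA below. In whole seedlings, fewer cells that express a gene and less RNA per cell cannot be told apart.

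Genes of the list of root-expressed loci were also lower in NdelYDA. Of 30 listed loci 9 had a tested probe set, and 8 of these fell and none rose, beside 16.6% of all probe sets tested that were called lower. The median log2 change of the 9 was -0.79 against -0.01 over all probe sets. AT5G17820, a class III peroxidase gene, fell most (-1.76, SE 0.093, limma adjusted p = 7.41e-10). AT2G37130, another peroxidase gene, fell by 0.79 (SE 0.10, limma adjusted p = 1.51e-05). PYK10, the abundant root beta-glucosidase, was not called (-0.11, SE 0.071, limma adjusted p = 0.265). The summed intensity of the 9 genes, most of it from PYK10, was 13800 to 14330 in NdelYDA and 18070 to 19210 in Ler. The part of root tissue in the fall of the cluster genes was not tested. The changes of AT5G47980 (-2.0) and AT5G47950 (-1.21) lay on either side of that of AT5G17820 and below those of the other 8 root genes, of which the next was AT1G30870 (-1.08). Of 24 listed shoot loci 3 were tested. LHCB4.2, a light-harvesting protein gene, fell by 0.44 (SE 0.074, limma adjusted p = 0.000232), and LHCB4.1 (-0.06) and the Rubisco activase gene RCA (-0.01) were not called.

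In yda seedlings against C24, which addressed loss of YDA function, AT5G47950 fell slightly and AT5G47980 was too dim to follow. The log2 change of AT5G47950 was -0.45 (SE 0.12, limma adjusted p = 0.00798), with a mean of 70.3% of the C24 mean. Over the other scalings, pseudocounts, filters and fits it ranged from -0.48 to -0.37. Leaving out C24 replicate 2 gave the weakest call, at -0.36 (limma adjusted p = 0.0485), and leaving out C24 replicate 3 the largest change, at -0.64. The array control for RNA integrity, the GAPDH 3′ to 5′ ratio, was 0.7889 to 0.9451 in yda, and 1.458, 1.123 and 1.018 in the C24 arrays, and its part in this change was not tested. AT5G47980 had a log2 change of -0.07 (95% interval -0.50 to 0.36, limma adjusted p = 0.815) between groups that both lay below the 30th percentile. Among all probe sets tested, 24.4% were called lower in yda. Of the cluster genes, AT5G47950 alone was measurable in this comparison, and it was called lower.

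Of the root list in yda, 3 of 9 genes fell and 1 rose, with a median of 0.08 against -0.03 over all probe sets, of which 24.4% were called lower. Without C24 replicate 1 the median was -0.14. AT5G66390, a peroxidase gene, fell by 0.64 (SE 0.098, limma adjusted p = 6.96e-05), AT5G17820 fell by 0.52 (SE 0.093, limma adjusted p = 0.00031), and AT4G26010, also a peroxidase gene, rose by 0.74 (SE 0.19, limma adjusted p = 0.00508). The summed intensity of the list was 18520 to 22510 in yda and 21020 to 23390 in C24, which overlapped. Of the shoot list, LHCB4.2 fell by 0.95 (SE 0.074, limma adjusted p = 5.44e-08) and LHCB4.1 by 0.18 (SE 0.063, limma adjusted p = 0.0326). The yda and C24 groups of LHCB4.1 overlapped. Its call was lost under 8 of 24 alternatives, among them median scaling of the arrays (limma adjusted p = 0.215).

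The change in NdelYDA less the change in yda, each against its own control, could be read for AT5G47950, which was measurable in all 4 groups. It was -0.76 (SE 0.18, limma adjusted p = 0.00327), and 15.8% of all probe sets tested had a difference called in this direction. The mutant groups stood at the same level (178 in NdelYDA, 174 in yda), and the controls differed by 0.79 in favour of Ler, so the larger fall in NdelYDA is counted from the higher control. For AT5G47980 the same difference was -1.93 (SE 0.28), but a change between C24 and yda could not be seen at their signal, and this value repeats the change in NdelYDA. Whether the mutants differ in their effect on AT5G47980 was not measurable.

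Between the control ecotypes, the comparison that drew attention to the cluster, AT5G47980 was higher in Ler than in C24 by 6.28 on the log2(intensity + 16) scale. This was the third largest difference in favour of Ler among the probe sets tested. Since the C24 signal was so low, its size depends on the pseudocount, and set against the 30th percentile of the C24 arrays the Ler signal was at least 26.5-fold higher. NdelYDA was at least 6.48-fold above C24 by the same measure, and at least 6.55-fold above yda. AT5G47950 was higher in Ler by 0.79. In 26.6% of all probe sets tested the Ler arrays lay wholly above the C24 arrays, and nothing is read from the cluster genes' place among them. An array signal depends on both the amount of transcript and its match to the probes, and between ecotypes these cannot be told apart here.

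The control chosen decides the direction for AT5G47980, since NdelYDA lay below Ler and above C24. Ler was at least 26.8-fold above yda by the same measure. AT5G47950 had a lower mean in both mutants than in either control, with log2 differences of -0.42 for NdelYDA against C24 and -1.24 for yda against Ler. These exchanged comparisons also hold the difference between the ecotypes and are given without a test.

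The tested genes around the cluster were few, and the fall in NdelYDA was not called at any of them. From AT5G47900 to AT5G48100 the gene table lists 15 other protein-coding loci, of which 9 had a probe set and 7 were tested. By limma 0 of the 7 were lower, and 0 at an unadjusted p under 0.05, which with 7 genes is not far from the 16.6% called lower among all probe sets. AT5G47970, which lies between the measured cluster genes, was at 328 ± 13.4 (SD, n = 4) in NdelYDA and 286 ± 10.2 (n = 3) in Ler, a log2 change of 0.19 (SE 0.085, limma adjusted p = 0.113). AT5G48020, a dioxygenase-family gene on the far side of THAS1, was at 596 ± 44.1 and 649 ± 32.8 and was not called (-0.12, SE 0.086, limma adjusted p = 0.328). The intervals of these changes, 0.01 to 0.37 and -0.30 to 0.06, lie above those of AT5G47980 (-2.43 to -1.57) and AT5G47950 (-1.48 to -0.95). XTH20, a xyloglucan-modifying enzyme gene, rose by 0.86 (SE 0.15, limma adjusted p = 0.000327). AT5G47900 (0.13), AT5G47930, a ribosomal protein gene (0.02), AT5G47940 (0.11) and AT5G48060 (-0.33) were not called.

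**Figure D2:**
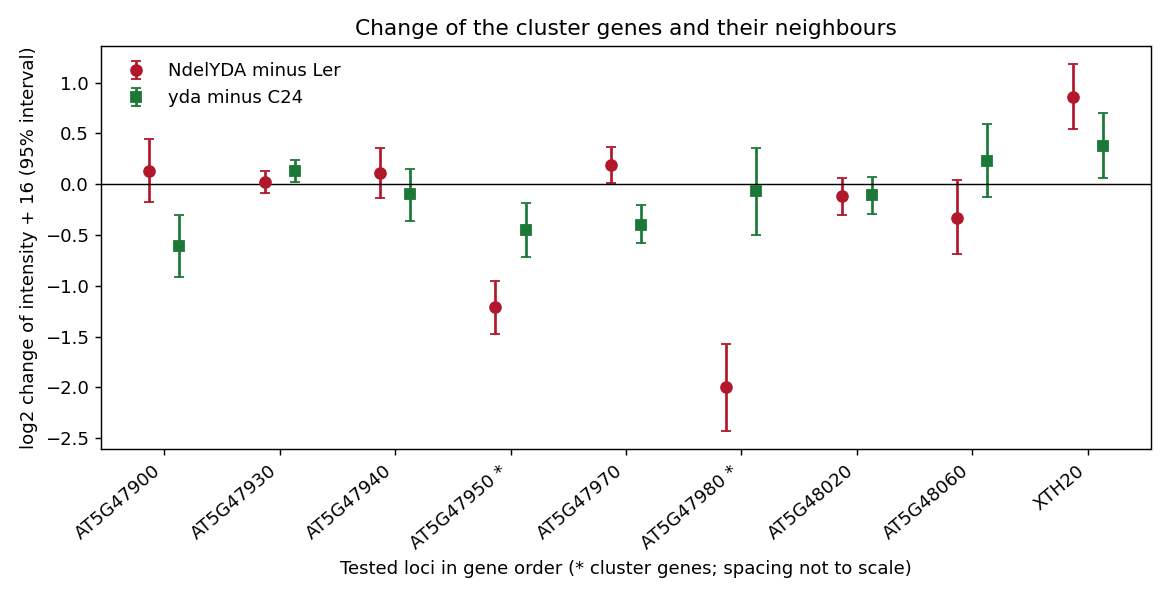
Log2 change of intensity + 16 (y axis, bars 95% interval) of the tested loci in gene order, for NdelYDA minus Ler (circles) and yda minus C24 (squares), with an asterisk at the cluster genes. In NdelYDA the cluster genes AT5G47950 (-1.21) and AT5G47980 (-2.0) lie below the 7 other loci, which run from -0.33 to 0.86.

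In yda, 2 of the 7 neighbours fell, near the 24.4% called lower among all probe sets. AT5G47900 fell by 0.61 (SE 0.14, limma adjusted p = 0.00286) and AT5G47970 fell by 0.40 (SE 0.085, limma adjusted p = 0.00135). The change of AT5G47970 was thus of the size of that of AT5G47950 (-0.45) in this comparison. AT5G47930 (0.13, limma adjusted p = 0.0507), XTH20 (0.38, limma adjusted p = 0.0512), AT5G48060 (0.23), AT5G47940 (-0.10) and AT5G48020 (-0.11) were not called. But XTH20 was called higher under 10 of 24 alternatives, among them quantile normalization (limma adjusted p = 0.0203). AT5G47930 was called higher under 5 of 24, among them median scaling (limma adjusted p = 0.00665). The ecotypes also differed at some neighbours, with AT5G48020 higher in Ler by 0.70, AT5G48060, a C2-domain protein gene, by 0.82, and XTH20 higher in C24 (-1.17). AT5G47970 stood at 284 ± 28.3 (n = 3) in C24 and 286 ± 10.2 in Ler. The remaining measured neighbours, AT5G47920 and AT5G48050, were too dim to be tested.

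A gene of the thalianol pathway outside the cluster fell with it. AT1G66800, a reductase of later steps, was 1 of 2 such loci listed and the one with a probe set. It read 1221.5 to 1336.2 in Ler (mean 1290 ± 62, SD, n = 3) and 276 to 307.4 in NdelYDA (289 ± 13.6, n = 4). In C24 it read 280.6 to 398.5 (321 ± 66.8, n = 3) and in yda 168.3 to 182 (176 ± 6.33, n = 4). Its groups did not overlap within either mutant comparison. Of all probe sets tested, 22.9% had NdelYDA wholly below Ler, 16.6% were called lower in NdelYDA and 24.4% in yda. The log2 change was -2.1 in NdelYDA (SE 0.10, limma adjusted p = 3.73e-10) and -0.80 in yda (SE 0.10, limma adjusted p = 1.39e-05), and the difference of the effects was -1.30 (SE 0.15, limma adjusted p = 5.96e-06). Between the controls it was higher in Ler by 1.97 (SE 0.11, limma adjusted p = 1.73e-09). Unlike AT5G47980, it was above the 30th percentile in all groups.

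Genes of other triterpene clusters were represented by 1 of 17 listed loci, AT4G15390, an acyltransferase-family gene in the region of the arabidiol and baruol synthase genes. It was lower in both mutants, as were 16.6% of all probe sets tested in NdelYDA and 24.4% in yda, each counted separately. Its level was 501 ± 34.2 (SD, n = 4) in NdelYDA against 1010 ± 119 (n = 3) in Ler, and 66.4 ± 22.1 (n = 4) in yda against 280 ± 143 (n = 3) in C24. The yda arrays read 41.8 to 87.6, with 2 of the 4 above the 30th percentile, and the C24 arrays 150.7 to 434.1. The size of the fall in yda thus rests on a dim signal and a spread control. The log2 changes were -0.99 (SE 0.25, limma adjusted p = 0.00632) and -1.77 (SE 0.25, limma adjusted p = 3.42e-05), and their difference was not called (0.78, SE 0.36, limma adjusted p = 0.109). Without C24 replicate 3 the difference was called (1.14, limma adjusted p = 0.00738). Ler exceeded C24 by 1.91 (SE 0.27, limma adjusted p = 3.93e-05).

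Few genes that supply the precursor were measured. Their calls stand beside 16.6% of all probe sets tested that were called lower in NdelYDA and 24.4% in yda. Of 21 listed loci of the mevalonate and squalene steps 2 were tested, and AT3G54250, a mevalonate diphosphate decarboxylase gene, fell by 0.52 in NdelYDA (SE 0.15, limma adjusted p = 0.0118), while AT1G31910, a phosphomevalonate kinase gene, was not called (-0.13). Neither was called in yda. Of 16 listed sterol loci CPI1, the cyclopropylsterol isomerase gene, was the one tested. It fell by 0.59 in NdelYDA (SE 0.074, limma adjusted p = 1.23e-05) and by 0.19 in yda (SE 0.074, limma adjusted p = 0.0466). The call in yda was lost under 14 of 24 alternatives, among them quantile normalization (limma adjusted p = 0.139). Of 9 other oxidosqualene cyclase loci 1 had a probe set, LUP5, and it was too dim to be tested, at 4.6 to 24.5 over all arrays.

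**Figure D3:**
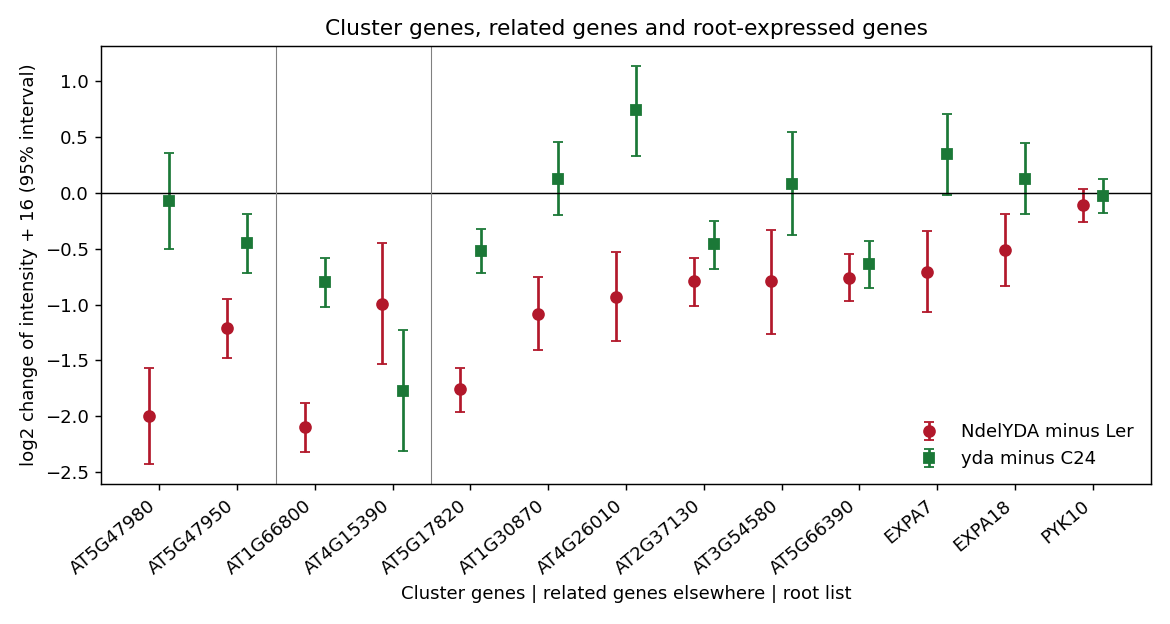
Log2 change of intensity + 16 (y axis, bars 95% interval) of the cluster genes, of AT1G66800 and AT4G15390, and of the 9 tested root-expressed genes, for NdelYDA minus Ler (circles) and yda minus C24 (squares). In NdelYDA AT1G66800 (-2.1) and AT5G47980 (-2.0) have the lowest values shown, and the root genes run from -1.76 to -0.11.

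The measured cluster genes did not share one pattern over the arrays. Their Pearson correlation over the 14 arrays was 0.57 and the Spearman correlation 0.48, and that of the deviations from the group means was 0.31. These describe 4 group means more than 14 independent points. The correlation of the deviations rests mostly on the C24 and yda arrays, where AT5G47980 lay below the 30th percentile. By correlation with AT5G47980, AT5G47950 ranked 4676 among 17209 other probe sets, and AT5G47980 ranked 2467 by correlation with AT5G47950.

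The probe sets most like AT5G47980 shared its step between the ecotypes. The first by Pearson correlation was 248729_at (r = 0.99), which has no gene in the tables used. Its mean was 3870 ± 50.8 (SD, n = 3) in Ler, 1020 ± 52.8 (n = 4) in NdelYDA, 8.83 ± 6.48 (n = 3) in C24 and 2.7 ± 1.16 (n = 4) in yda. Of the first 10, 5 have no gene in these tables, the others being 258905_at, 251945_at, 255578_at and 248727_at. The tenth, 248727_at (r = 0.976), averaged 3680 in Ler, 579 in NdelYDA, 36 in C24 and 34.2 in yda. These IDs were picked after their values were seen, and likeness over 14 arrays in 4 groups follows mostly the group means. Among named genes the 3 most alike were AT5G18840, of a sugar transporter family (r = 0.984), AT1G71070 (r = 0.979) and AT3G01260 (r = 0.978). Their log2 changes from Ler to NdelYDA were -0.73, -0.26 (not called) and -1.36, beside -2.0 for AT5G47980. The correlations of their deviations from the group means with those of AT5G47980 were -0.08, 0.48 and 0.31. The deviations of AT5G47980 come mostly from C24 and yda (SD 0.29 and 0.48 log2 units), where it lay below the 30th percentile. In Ler and NdelYDA its SD was 0.043 and 0.071. For 248729_at and 248727_at the correlation of deviations was -0.54 each. Nothing is read from these values about likeness within the groups.

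AT5G47950 had other companions. The named probe sets most like it were those of UGT72E3, a glucosyltransferase gene (r = 0.987), AT1G14240 (r = 0.976) and AT4G28650, a receptor kinase gene (r = 0.97). AT1G14240 averaged 963 in Ler, 334 in C24, 228 in NdelYDA and 222 in yda, and AT4G28650 averaged 327, 191, 149 and 130. UGT72E3 exceeded the 30th percentile in the Ler arrays only, so its likeness rests largely on low signals and nothing is read from it. The deviations of AT1G14240 from its group means correlated with those of AT5G47950 at 0.70, and those of AT4G28650 at 0.64.

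**Figure D4:**
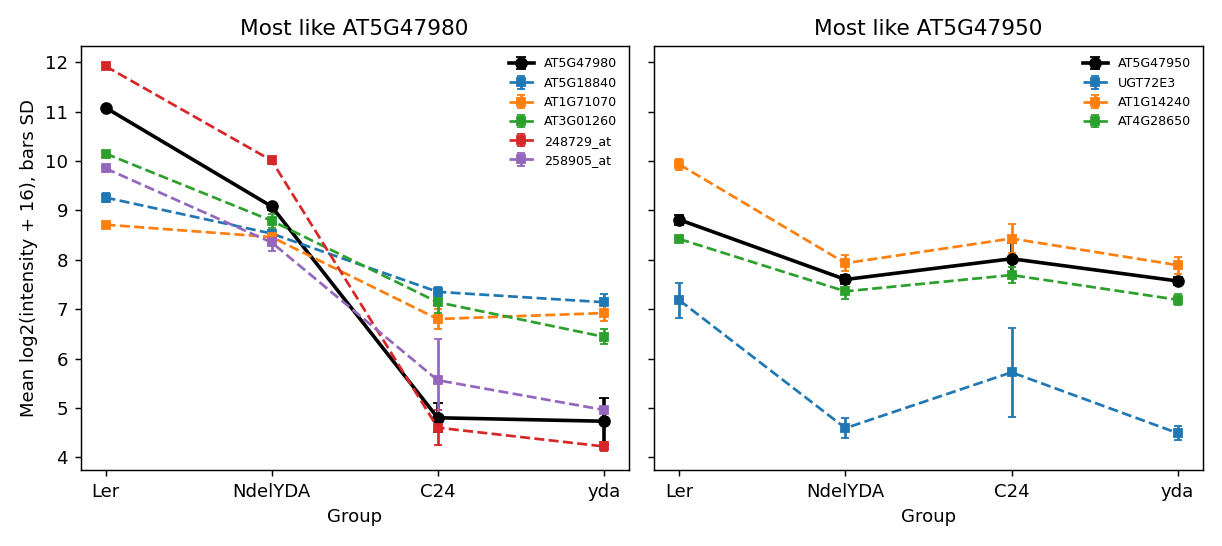
Mean log2(intensity + 16) by group (bars SD) of AT5G47980 with its 3 most alike named genes and the first 2 unnamed probe sets, and of AT5G47950 with its 3 most alike named genes. The profiles in the first panel drop from NdelYDA to C24, while those in the second are higher in C24 than in NdelYDA.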

How the data were processed

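The deposited values were used, 1-colour probe set intensities on a linear scale, as the file's own values show. Trimmed by 2% at both ends, every array had a mean of 500. The program that computed the intensities is not given in the sources used here, and no detection calls were used. The 64 array controls were left out. Of the other probe sets 13513 had 1 gene in the probe table, 503 several and 8730 none, and 13436 of the 13513 matched a locus of the TAIR10.1 gene table, used for names and gene order only.

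Values were tested as log2(intensity + 16), a scale that understates changes of dim genes. A probe set was kept if 3 or more of the 14 arrays read it above their own 30th percentile, which left 17210. Array medians lay within 0.14 log2 units, less than the 0.3 at which quantile normalization would have been applied, and the values stayed as deposited. One model with 4 group means was fitted with limma 3.58.1 (R 4.3.3, variance trend, two-sided, Benjamini-Hochberg over the 17210), and called at an adjusted p under 0.05. No arrays were identical, and no batch was given. The code was tested on simulated data. The number of arrays limits the precision.

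The members, lists and tests were chosen with earlier results of these data known. The lists came from memory of published loci. The naming rule took every measured cluster gene, tested neighbour and called gene of the other triterpene lists, the 3 named genes most like each member, and the 2 called genes with the smallest p of each other list per mutant comparison. Exceptions named after their values were seen are PYK10, AT4G26010, AT1G30870, AT1G31910, LUP5, RCA, AT5G47920, AT5G48050, AT5G48110 and the unnamed probe sets. Alternatives covered pseudocount, filter, scaling, variance trend, arrays fitted, replicate number, each left-out array and the control.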

Additional observations from a re-analysis of the deposited data

Results flagged for a closer look

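Both measured cluster genes passed the test of a difference between groups, the change in NdelYDA less that in yda, each against its own control. Over all probe sets tested, 15.8% had a difference called in this direction, and 22.9% had NdelYDA wholly below Ler. For AT5G47950 the difference was -0.76 on the log2(intensity + 16) scale, with all 4 NdelYDA arrays below all 3 Ler arrays and the yda and C24 arrays overlapping. For AT5G47980 it was -1.93, but the yda and C24 arrays all lay below the 30th percentile. An effect in yda could not be seen there, so the value repeats the change in NdelYDA and does not show that the effects differ. No array of the mutant groups stood apart from the others of its group for these genes by Dixon's criterion, which was not applied to the control groups of 3.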

How the results depend on the processing

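For the cluster genes, the call or its absence and the direction of each called change held under every alternative tried for the mutant comparisons and their difference, except where the control was exchanged. Against C24, AT5G47980 was higher in NdelYDA (4.28), and against Ler it was called lower in yda (-6.35). Its ecotype difference of 6.28 moved to 4.86 with a pseudocount of 64, 7.43 with a pseudocount of 1 and, in an alternative added after seeing the data, 4.48 with signals raised to the 30th percentile. With each array left out in turn, the change in NdelYDA ranged from -2.03 to -1.97 for AT5G47980 and -1.27 to -1.17 for AT5G47950, and that of AT5G47950 in yda from -0.64 to -0.35. For AT5G47980 in yda, which was never called, it ranged from -0.30 to 0.10. The counts of called probe sets stayed within 1.5 times the main count. Replicate numbers did not pair the samples. Deviations of same-numbered samples of a mutant and its control correlated at -0.16 to 0.08, those of the controls with each other at 0.03 to 0.16, and 1 of 12 samples of the mutant comparisons correlated best with its own number. With the replicate number as a block, 5110 probe sets in place of 5503 were called in NdelYDA and 7171 in place of 7470 in yda, and no call of a cluster gene changed. The absence of detection calls limits what can be said of AT5G47980 in C24 and yda.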

Other observations

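AT5G48110, a terpene synthase family gene just beyond the neighbours examined, was picked after its values were seen. It was at 586 ± 32.5 (SD, n = 3) in Ler, 494 ± 39.3 (n = 4) in NdelYDA, 83.4 ± 33 (n = 3) in C24 and 40.6 ± 3.03 (n = 4) in yda. Its level in Ler exceeded that in C24 by 2.66 on the log2(intensity + 16) scale, given without a test since the gene was picked for its pattern. Its log2 difference between NdelYDA and Ler was small (-0.24, 95% interval -0.61 to 0.12). In yda the log2 difference from C24 was -0.75, and all 4 arrays lay below the 30th percentile.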
